A study of Arabidopsis thaliana with 2 samples.

Results

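The genes described here are the trehalose phosphate synthase genes TPS1 and TPS5 to TPS11 of Arabidopsis thaliana and the genes KIN10 and KIN11 for the catalytic subunits of the SnRK1 kinase. They were picked by gene identifier, and all 10 were found among the 33565 rows of the deposited gene table. RNA sequencing compared 7-day-old shoots of the whitening mutant wn1, in the Col-0 background, with shoots of wild-type Col-0. Seedlings of both genotypes grew on solid MS medium at 22 °C, in days of 16 h light and 8 h dark. The tissue is labelled shoot and cotyledon. The labels do not name the gene behind wn1, and the sources used here do not give the hour of harvest. Each genotype had 1 library, so the values lack any replicate check and no p-value is given.

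Trehalose phosphate synthase makes trehalose 6-phosphate from UDP-glucose and glucose 6-phosphate. In plants this sugar phosphate is present in trace amounts, follows the level of sucrose, and inhibits SnRK1, a kinase complex that is active when carbon or energy is short. TPS1, a class I protein, provides most of the synthase activity in Arabidopsis. The class II proteins TPS5 to TPS11 carry a synthase-like and a phosphatase-like domain and are regarded mainly as regulators. In Arabidopsis seedlings transcripts of TPS8 to TPS11 are known to be high when sugar is low. SnRK1 itself is built from a catalytic alpha subunit (KIN10 or KIN11), a beta subunit and a gamma-type subunit.

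Levels are FPKM, that is fragments per kilobase of transcript length after scaling to all mapped fragments, and can be compared between genes. Differences are log2((wn1 FPKM + 1)/(wild-type FPKM + 1)), and a gene was called higher or lower from 2-fold upwards on that scale. All 10 genes had a mean of at least 1 FPKM over the libraries, as did 18788 genes in all. Steps between low FPKM values gave estimated depths of 13100000 fragments for wild type and 15900000 for wn1. The 95% intervals given here come from those estimates and cover counting error only, not variation between plants.

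Of the synthase and kinase genes, TPS1 and TPS5 had about 2-fold lower levels in wn1, and the other 8 differed less. Of the 10 genes 0 were at least 2-fold higher in wn1, against 3.67% of all measured genes, and 0 were at least 2-fold lower, against 3.65%. On the plain ratio of the FPKM values, without the added 1, TPS1 and TPS5 lay just past 2-fold lower. A plain ratio of 0.5 or less, at any distance past the limit, was found for 5.15% of genes with a value in both libraries. Those other 8 genes lay within 1.5-fold, as did 78.8% of all measured genes, so their share was near the background. The median log2 difference of the 10 genes was -0.02, beside 0.03 for all measured genes, whose quartiles were -0.25 and 0.31. In whole shoots, fewer cells of a type and less RNA per cell cannot be told apart.

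**Figure D1:**
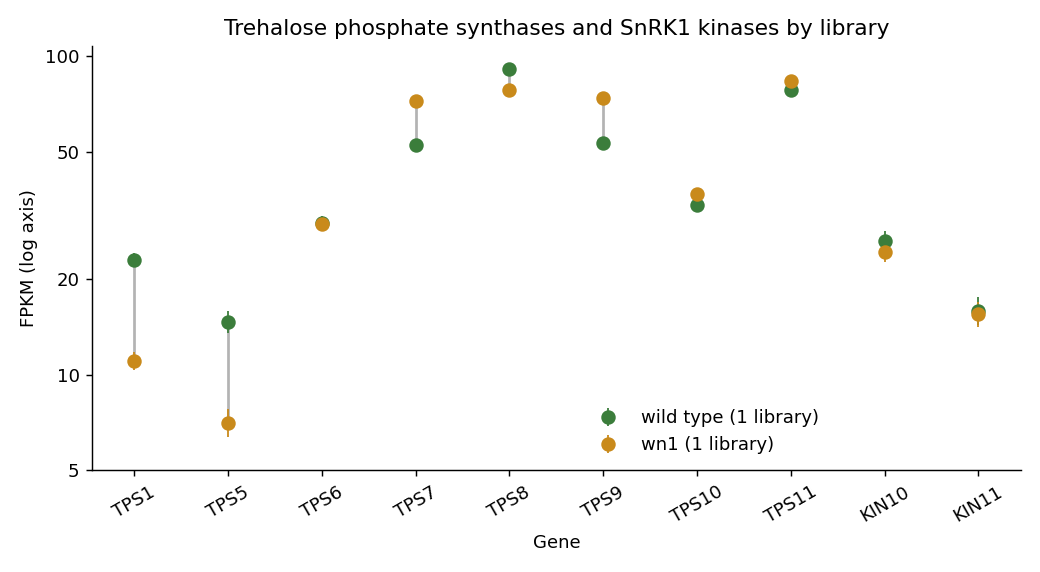
FPKM on a log axis of the 10 genes in the wild-type library (green) and the wn1 library (ochre); a grey line joins the values of a gene, and bars are 95% intervals for counting error from the estimated depth. TPS1 is at 23.0 and 11.05 FPKM and TPS5 at 14.6 and 7.05, while TPS6, KIN10 and KIN11 nearly coincide.

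TPS1 (AT1G78580), the class I synthase, was at 23.0 FPKM in wild type and 11.05 FPKM in wn1. The wild-type level was 2.08 times the wn1 level, and the log2 difference was -0.99, just short of the 2-fold limit of -1. The counting interval of the plain ratio of wn1 to wild type ran from 0.442 to 0.523, so it included the limit of 0.5. Among the measured genes TPS1 stood at rank 695 from the lowest log2 difference, within the lowest 3.70%. In level it went from the 69.9th percentile of measured genes in wild type to the 49.2nd in wn1. In the TAIR10.1 annotation the TPS1 locus overlaps AT1G78570 on the opposite strand, which was at 323 FPKM in wild type and 178 FPKM in wn1. Of 5384 stretches of 50 bases in TPS1 transcripts, 50 (0.929%) also occurred in AT1G78570. The sources used here do not give the strand setting of the count, and the part of this neighbour in the TPS1 values was not tested. The remaining class I genes TPS2, TPS3 and TPS4 were listed at 0 in both libraries.

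TPS5 (AT4G17770) was the class II gene with the lowest level in each library, at 14.6 FPKM in wild type and 7.05 FPKM in wn1. Its wild-type level was likewise 2.08 times the wn1 level, with a log2 difference of -0.96 and a counting interval of 0.421 to 0.548 for the plain ratio. TPS5 and TPS1 thus had nearly the same ratio at different levels. TPS6 (AT1G68020) had 29.8 FPKM in wild type and 29.7 FPKM in wn1, the smallest difference of the 10 genes.

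TPS7 (AT1G06410) and TPS9 (AT1G23870) were the class II genes with the largest positive differences. TPS7 went from 52.8 FPKM in wild type to 72.4 FPKM in wn1, a ratio of 1.37 with a counting interval of 1.30 to 1.44. TPS9 had 53.4 and 73.9 FPKM, a ratio of 1.38 with an interval of 1.31 to 1.46. Both intervals lay above 1, and the pair stood at the 83.5th and 84.1st percentile of log2 differences. Within each library the counting intervals of the 2 levels overlapped, from 50.7 to 55.0 FPKM for TPS7 and from 51.1 to 55.7 for TPS9 in wild type.

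TPS8 (AT1G70290) had the highest level of the family in wild type, at 91.3 FPKM, and 78.5 FPKM in wn1. Its ratio of 0.8599, with an interval of 0.823 to 0.898, was below 1. TPS11 (AT2G18700) was at 78.6 FPKM in wild type and 83.6 FPKM in wn1, a ratio of 1.06, and TPS10 (AT1G60140) had 34.1 and 37.0 FPKM, a ratio of 1.08. Of TPS8 to TPS11, TPS9 differed most, and none of the 4 reached 1.5-fold. TPS11 was thus the highest of the family in wn1. The positions of TPS9, TPS7, TPS10, TPS6, KIN10 and TPS5 in the order of levels were identical in the libraries, while TPS1 stood above KIN11 in wild type and below it in wn1.

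**Figure D2:**
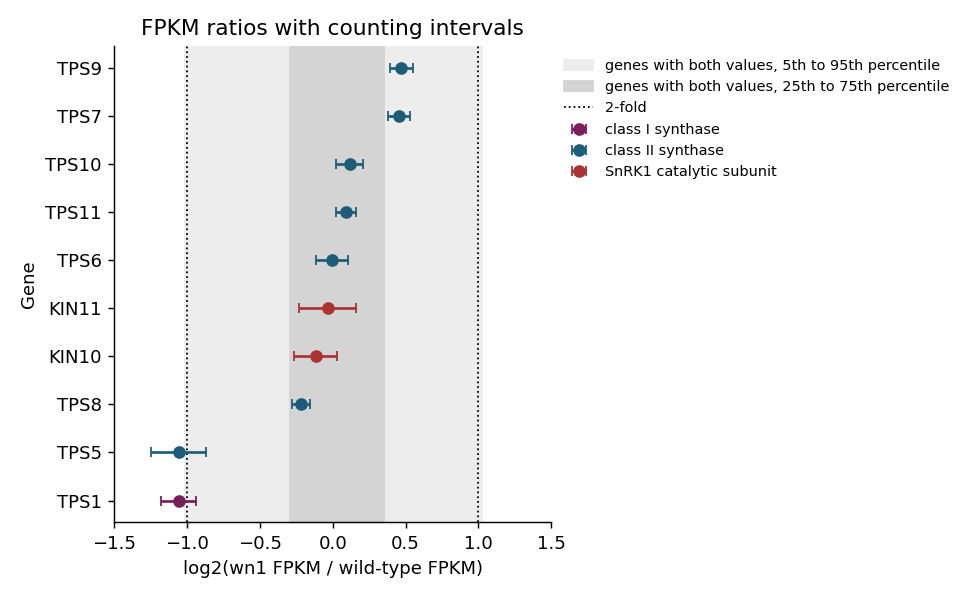
log2 of the plain FPKM ratio of wn1 to wild type for the 10 genes, with 95% intervals for counting error; grey bands give the 25th to 75th and the 5th to 95th percentile of the 18746 measured genes with a value in both libraries, and dotted lines mark 2-fold. TPS1 and TPS5, at a ratio of 0.481 each, lie just past the edge of the wider band, TPS7 and TPS9 lie above the narrower band, and the other 6 lie inside it.

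Summed over the 7 class II genes, the level was 355 FPKM in wild type and 382 FPKM in wn1, with a median log2 difference of 0.09. Of these genes 4 lay above 0 and 3 below, beside 52.9% and 47.1% of all measured genes. TPS8 made up 25.7% of it in wild type and 20.6% in wn1, while TPS7 went from 14.9% to 18.9% and TPS9 from 15.04% to 19.3%. TPS5 went from 4.13% to 1.85%, and TPS11 made up 22.2% and 21.9%. The class II sum was 15.4 times the TPS1 level in wild type and 34.6 times in wn1.

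KIN10 (AT3G01090) and KIN11 (AT3G29160), alternative catalytic subunits of SnRK1, had close to the same levels in both libraries. KIN10 was at 26.3 FPKM in wild type and 24.3 FPKM in wn1, a ratio of 0.922 with a counting interval of 0.832 to 1.02. KIN11 had 15.9 and 15.5 FPKM, a ratio of 0.976 with an interval of 0.853 to 1.12. Both intervals included 1. KIN10 made up 62.4% of the summed kinase level in wild type and 61.1% in wn1. KIN12 (AT5G39440), a further SnRK1 kinase gene, was listed at 0 in both libraries. No stretch of 50 bases was shared among transcripts of the 10 genes.

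The measured genes for subunits that join KIN10 and KIN11 in the complex all had log2 differences above 0, as did 52.9% of all measured genes. The counting intervals of the plain ratio included 1 for KINB2 (0.945 to 1.21), KINB3 (0.984 to 1.43) and SNF4 (0.954 to 1.16). Those of KINB1 (2.05 to 2.44) and KING1 (1.09 to 1.28) lay above 1. KINB1 (AT5G21170), a beta subunit gene, went from 40.4 FPKM in wild type to 90.5 FPKM in wn1, a log2 difference of 1.14. It was the 1 of 6 measured genes of its list at least 2-fold higher, beside 3.67% of all measured genes. Its share of the summed beta subunit level was 52.7% in wild type and 69.0% in wn1. The beta gene KINB2 (AT4G16360) was close to level, at 20.8 FPKM in wild type and 22.3 FPKM in wn1. KINB3 (AT2G28060), also a beta gene, had 15.5 and 18.4 FPKM. Its plain ratio of 1.19 was near the 1.18 of KING1 but rested on fewer estimated fragments. KING1 (AT3G48530), which encodes a gamma subunit, had 46.0 and 54.3 FPKM. SNF4 (AT1G09020), whose product serves as the gamma-type subunit of the plant complex, had 22.3 and 23.5 FPKM. GRIK1 (AT3G45240), a kinase that phosphorylates the SnRK1 catalytic subunit, had 9.26 and 15.1 FPKM, a difference of 0.65. The list median was 0.23.

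**Figure D3:**
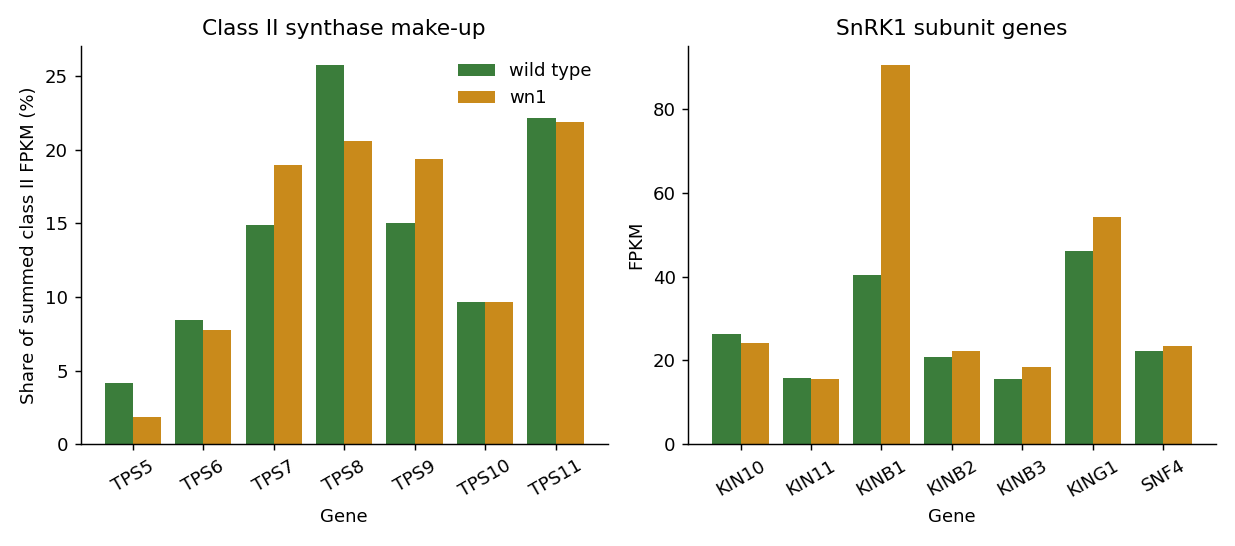
Left, share of each class II gene in the summed class II FPKM of a library; right, FPKM of the SnRK1 subunit genes, in wild type (green) and wn1 (ochre), 1 library each. TPS8 has a smaller share and TPS7 and TPS9 larger shares in wn1, and among the subunits KINB1 goes from 40.4 to 90.5 FPKM.

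Transcripts of 3 of the genes for removal of trehalose 6-phosphate were at least 2-fold lower in wn1, beside 3.65% of all measured genes. Trehalose phosphate phosphatases (TPP) convert it to trehalose, and the trehalase TRE1 splits trehalose into glucose. Of 9 measured genes 6 lay within 2-fold, and the median was -0.54. None was at least 2-fold higher, beside 3.67% of all measured genes. TPPJ (AT5G65140) went from 18.8 FPKM in wild type to 6.08 FPKM in wn1, a log2 difference of -1.48. TPPE (AT2G22190) had 9.45 and 2.11 FPKM, a difference of -1.75, and TPPB (AT1G78090) had 5.51 and 2.04, a difference of -1.10. TPPA (AT5G51460) stood against these at 12.4 and 12.9 FPKM, and it had the highest mean of the list. It was the TPP gene with the highest level in wn1, where TPPJ had held that place in wild type. Summed over the TPP rows, the level was 60.2 FPKM in wild type and 31.97 FPKM in wn1. TPPJ made up 31.2% of that sum in wild type and 19.0% in wn1. TPPF (AT4G12430) had 4.67 and 2.28 FPKM, a plain ratio of wild type to wn1 of 2.05, and was within 2-fold only with the added 1. Log2 differences below 0 but within 2-fold were found for TPPI (AT5G10100) at 4.62 and 2.87, TPPH (AT4G39770) at 2.93 and 2.06 and TPPD (AT1G35910) at 1.87 and 1.63. The counting intervals of the plain ratio included 1 for TPPH (0.463 to 1.06) and TPPD (0.542 to 1.39). That of TPPI (0.446 to 0.846) lay below 1. TPPC (AT1G22210) was listed at 0 in both libraries, and TRE1 (AT4G24040) had 1.44 and 2.43 FPKM.

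Genes known to be induced by SnRK1, darkness or low sugar had higher values in wn1. All 14 listed genes lay above 0, beside 52.9% of all measured genes. Of the 14, 10 were at least 2-fold higher, beside 3.67% of all measured genes, and the median was 1.73. The list was chosen with earlier results of these data known. The asparagine synthetase gene ASN1 (AT3G47340) went from 21.0 FPKM in wild type to 267 FPKM in wn1. DRM2 (AT2G33830), a dormancy-associated gene, had 11.1 and 113 FPKM, and the branched-chain aminotransferase gene BCAT-2 (AT1G10070) had 4.03 and 41.8. SEN1 (AT4G35770), a dark-inducible gene, had the highest mean, with 53.4 and 361 FPKM. The proline dehydrogenase gene AT3G30775 had 21.8 and 118 FPKM. AT3G15450, described in the table as an aluminium induced protein, had 83.1 and 318. DIN4 (AT3G13450) and AT3G06850 (DIN3), for subunits of the branched-chain keto acid dehydrogenase, went from 7.19 to 27.9 FPKM and from 9.75 to 22.5 FPKM. DIN9 (AT1G67070), a mannose 6-phosphate isomerase gene, had 6.42 and 22.2, and the raffinose synthase family gene DIN10 (AT5G20250) had 34.7 and 84.0. DIN2 (AT3G60140), a glycosyl hydrolase gene, was nearly level at 7.27 and 7.51 FPKM.

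Transcription factors and adaptors of the pathway differed in both directions. Of 6 measured bZIP factors of groups C and S1, which act downstream of SnRK1, 1 was at least 2-fold higher, beside 3.67% of all measured genes. The median was 0.33. The listed genes BZIP2, BZIP11 and BZIP53 were not analysed here. BZIP9 (AT5G24800) went from 55.2 FPKM in wild type to 153 FPKM in wn1. BZIP63 (AT5G28770), a direct SnRK1 substrate, had 19.3 and 27.4 FPKM, a difference of 0.48. The table describes a further 13 listed genes as DUF581 proteins, a family whose zinc finger binds SnRK1. Of these, 3 were at least 2-fold lower and 1 was at least 2-fold higher, beside 3.65% and 3.67% of all measured genes. The median was -0.73. AT1G78020 was at 149.9 FPKM in wild type and 56.9 FPKM in wn1, AT1G22160 had 56.1 and 14.4, and AT1G74940 had 14.5 and 5.03. AT5G11460 went the other way with 5.23 and 11.9 FPKM. AT5G20700, the gene with the highest mean among the 13 listed, had 382 and 332.

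**Figure D4:**
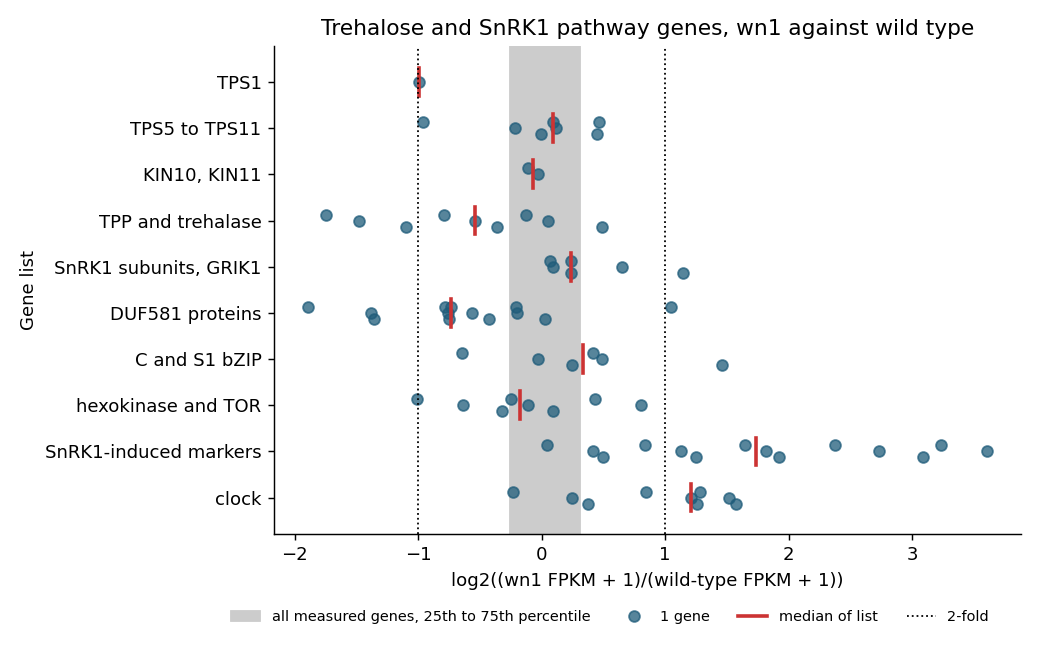
log2((wn1 FPKM + 1)/(wild-type FPKM + 1)) of each measured gene by list, with the list median in red, the 25th to 75th percentile of all measured genes in grey and 2-fold marked by dotted lines. TPS6, TPS8, TPS10, TPS11 and both kinase genes lie inside the grey band and TPS7 and TPS9 above it. Of the 14 genes induced by SnRK1, darkness or low sugar (labelled SnRK1-induced markers), 10 lie above 1.

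Hexokinase and TOR kinase genes, which belong to parallel sugar and growth signalling, had a median of -0.18. The hexokinase gene HXK2 (AT2G19860) went from 34.9 FPKM in wild type to 16.9 FPKM in wn1, a log2 difference of -1.01. It was the 1 of 8 at least 2-fold lower, beside 3.65% of all measured genes. The glucose sensor HXK1 (AT4G29130) had 62.1 and 52.0 FPKM. TOR (AT1G50030), a kinase that promotes growth when sugar is available, had 8.48 and 7.80. S6K1 (AT3G08730), a kinase acting downstream of TOR, had 104 and 181 FPKM, the highest mean of the list.

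Other measures differed alongside these genes. Of 9 measured circadian clock genes, 5 were at least 2-fold higher in wn1, beside 3.67% of all measured genes. None was at least 2-fold lower, beside 3.65% of all measured genes, and the median was 1.21. LHY (AT1G01060) went from 222 FPKM in wild type to 532 FPKM in wn1, PRR9 (AT2G46790) had 15.5 and 48.3, PRR7 (AT5G02810) had 14.97 and 36.0, GI (AT1G22770) had 8.77 and 22.8, and ELF3 (AT2G25930) had 7.56 and 23.5. The part of clock phase or harvest hour in the results above was not tested. Summed over the list, 5 green leaf markers were at 28286 FPKM in wild type and 19727 FPKM in wn1, and all lay within 2-fold. Most of that sum was RBCS1A (AT1G67090), at 19784 and 13647 FPKM. The 5 root markers had 356 and 200 FPKM in sum, and none was at 0 in these shoot libraries. Most of the root sum was PRP3 (AT3G62680), at 279 and 146 FPKM. The 4 seed markers had 85.8 and 14.3 FPKM in sum, and all were at least 2-fold lower in wn1. Of 3 phloem markers, with sums of 103 and 65.2 FPKM, 2 were at least 2-fold lower. The gene SUC2 for a sucrose-proton symporter of the phloem (AT1G22710) had 79.6 and 35.8 FPKM and APL (AT1G79430) had 10.12 and 3.37, whereas SEOR1 (AT3G01680) had 13.6 and 26.0. The part of tissue make-up in the TPS1 and TPS5 values was not tested.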

How the data were processed

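FPKM were deposited by the authors as a single table of genes. The submitters' processing notes name Bowtie and the build TAIR10. The sources used here do not give the read counter, versions, strand setting or filters. Columns were matched to samples by name, and a further 2 columns of per-sample values naming other material were not used.

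From the FPKM, log2 differences were computed with a pseudocount of 1, over genes averaging at least 1 FPKM across the libraries, in Python 3.11.15 with pandas 2.3.3 and scipy 1.17.1. With 1 library per genotype no test was made. FPKM were not divided by column sums, because 1 plastid transfer RNA row held 54.1% of the wn1 sum.

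Depth was estimated from low FPKM. Among 919 genes with 1 transcript and values under 0.3, 84.8% of the ratios lay within 0.5% of the step ratio 0.82 times a quotient of whole numbers of at most 6. Transcripts of at least 1000 bases with values under 0.15 then gave the depths. Ratio intervals are exact Clopper-Pearson intervals of the estimated fragments and level intervals exact Poisson intervals. Transcript lengths came from TAIR10.1, whose lengths may differ from those the authors used. The steps were also run on simulated data. The outcome of that run is not given here, so it is no support for the depths or intervals.

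Members and lists were chosen with earlier results of these data known. The genes named were the 10 members and, in 8 pathway lists with 76 genes, the genes at least 2-fold higher or lower and the gene with the highest mean. Other genes named as examples (GRIK1, KINB2, KINB3, KING1, SNF4, KIN12, TPS2, TPS3, TPS4, TPPC, TPPD, TPPF, TPPH, TPPI, TRE1, DIN2, BZIP63, HXK1, TOR, RBCS1A, PRP3, SUC2, APL, SEOR1) were chosen after their values were seen. Of the 76 genes, 71 had a row, and the other 5 (TPPG, GRIK2, BZIP2, BZIP11 and BZIP53) were not analysed here.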

Additional observations from a re-analysis of the deposited data

How the results depend on the processing

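Under the 5 alternatives that can change a gene's own log2 difference (pseudocount, centring and rescaling), all 50 values of the members stayed within their counting intervals. Centring and rescaling move all genes by nearly the same small amount, so this does not test single genes. The values ranged from -1.05 to -0.97 for TPS1 and from -1.04 to -0.94 for TPS5. Those of TPS6 ranged from -0.04 to 0.02, so its sign, and with it the count of class II genes below 0, depends on the rescaling. The number of members at least 2-fold lower, 0 as reported, was 2 with a pseudocount of 0.1 (TPS1 and TPS5), 2 at a threshold of 1.5-fold, and 1 both when centred on the median of all genes and when rescaled to a common upper quartile. Those genes therefore lie on the limit, and a count of 0 depends on the pseudocount. The summed class II level, 1.08 times wild type as reported, was 1.05 times after rescaling to a common upper quartile. The phosphatase and trehalase median was -1.48 when genes had to average 5 FPKM, where fewer genes were left. The hexokinase and TOR list had 0 genes lower when rescaled to nuclear protein-coding genes. At 1.5-fold that list had 1 gene higher and 2 lower, the bZIP list 1 lower and the DUF581 list 7 lower. The list of SnRK1 subunits, GRIK1 and KIN12 had 2 higher at 1.5-fold, KINB1 and GRIK1. At 4-fold the list of genes induced by SnRK1, darkness or low sugar had 5 higher. The bZIP, DUF581 and clock lists, and that of SnRK1 subunits, GRIK1 and KIN12, had 0 higher. At 4-fold the DUF581, hexokinase and TOR, and phosphatase and trehalase lists had 0 lower. No paired analysis was possible because there was 1 library per genotype. With no replicates, no statement reaches beyond these 2 libraries.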
